A study of Mus musculus with 16 samples.

Results

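The 44 genes described here encode the proteins that license, open, copy and repackage DNA in S phase, and the enzymes that supply its nucleotides. They were listed by name, and each was represented by its brightest probe on the array. All 44 were measured, among 21764 genes or unnamed transcripts tested. The cells came from wild-type BALB/c mice, with no transgene or treatment named in the labels. Bone marrow fraction A (Fr.A) and fraction B/C (Fr.B/C), the pre-pro-B and pro-B stages of the Hardy scheme, were sorted from 16 adult females pooled per sort. The same fractions of fetal liver were sorted from a pool of on average 8 embryos taken at gestation day 16. With 4 sorts per tissue, the 4 groups held 4 arrays each and 16 in all, each array setting the sample against a common reference of RNA from 6 cell lines. Every value below is a log2 ratio of sample over reference, values listed by array stand in the order of arrays 1 to 4, and n is 4 arrays per group throughout.

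Replication starts at origins bound by the origin recognition complex, where Cdc6 and Cdt1 load rings of MCM proteins in G1. Cyclin E and its kinase, acting with the E2F factors that drive many of these genes, trigger the firing of origins, when Cdc45 and the GINS complex turn the MCM ring into a working helicase. Polymerase alpha with primase lays primers, polymerases delta and epsilon extend them on a sliding clamp, and single-strand binding protein covers the exposed strands. B-cell precursors divide at stages of their development between gene rearrangements.

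Median sample signal per array was 71.2 to 162 (intensity), and 53.0% to 68.4% of probes were well above background. All 44 replication probes were well above background on all 16 arrays, and saturated spots were limited to Mcm6 and Pcna on 1 fetal liver Fr.B/C array each. Both flags were read in the sample channel only, and those of the reference channel were not counted. Within a group, arrays 1 and 2 carry the sample in opposite dyes, as do arrays 3 and 4. After group and dye were removed, the 2 arrays of such a set correlated at -0.05 to 0.77 and arrays of different sets at -0.86 to -0.53. The labels name 4 separate sorts, but p-values would be too small if the arrays of a set shared one, so the counts over the 44 genes are also given with sets averaged, which was not done for counts within a role or another list. The tissues were scanned in separate sessions, and what differs by session cannot be told apart from what differs by tissue. In both tissues, arrays 1 and 2 were also scanned in other sessions than arrays 3 and 4. What differs between the sets cannot be told apart from what differs by session. Array 1 of bone marrow Fr.A and array 1 of bone marrow Fr.B/C were scanned in different sessions. Other arrays of the same number in a tissue shared a session. In bulk RNA a lower level can mean fewer cells of a type or less RNA per cell, and these cannot be told apart either.

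The labelled cell type was checked against 12 measured of 14 listed B-lineage markers, of which 8 rose over the step from Fr.A to Fr.B/C in each tissue, while 1 fell in bone marrow and 2 in fetal liver. Between tissues 3 were lower in fetal liver Fr.A and 6 in Fr.B/C, and none was higher. Pax5 was well above background on at most 2 arrays of any group.

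Markers of other cells moved with the groups too. The share of all genes called, to set beside all marker counts, is given below with each comparison. Erythroid markers were higher in fetal liver for 9 of 11 measured genes in either fraction, with mean log2 ratios per array of 1.03 to 2.49 (Fr.A) and 1.14 to 2.22 (Fr.B/C) against 0.07 to 0.13 and -0.22 to 0.01 in bone marrow. Myeloid markers, the same measure, were 3.50 to 4.32 and 2.88 to 3.42 in bone marrow Fr.A and Fr.B/C, and 2.47 to 3.40 and 1.67 to 2.44 in fetal liver. Of 10 measured, 4 and 3 were lower in fetal liver Fr.A and Fr.B/C, 1 was higher in fetal liver Fr.A, and 2 and 4 fell over the step in bone marrow and fetal liver. NK markers (5 and 2 of 7 lower in fetal liver, 6 and 3 falling over the step) were 0.54 to 0.80, -0.70 to -0.54, -0.45 to -0.21 and -1.38 to -1.18 in the same order of groups. T-lineage markers (4 of 8 lower in fetal liver in each fraction and 1 higher in Fr.B/C, 3 falling and 1 rising over each step) were -2.13 to -1.85, -2.68 to -2.43, -2.67 to -2.37 and -3.14 to -2.89. The plasmacytoid dendritic list fell for 6 and 7 of 8 genes over the step and the stem and progenitor list for 5 of 8 in each tissue, with no rise. Between tissues 3 plasmacytoid dendritic genes were higher and 3 lower in fetal liver Fr.A and 1 and 3 in Fr.B/C, and of the stem and progenitor genes 2 were higher in Fr.A, and 3 higher and 1 lower in Fr.B/C. Of 9 hepatocyte markers 4 could be tested, of which 2 were lower in fetal liver Fr.A and 2 higher and 1 lower in Fr.B/C, and 3 fell over the step in bone marrow and 2 in fetal liver. Alb, Apoa1, Apoa2 and Ttr were well above background on at most 2 arrays of a group. The part of these cells in the results below was not tested.

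Of the 44 genes, 37 had a promoter window in the RefSeq table (build GRCm38.p6), 43 windows in all. The 150 bases before the annotated start are shown for the 7 genes that changed the same way over the step from Fr.A to Fr.B/C in both tissues, since they moved together in arrays that share no sample. The share of all genes that did so is not given here. Capitals mark the motifs searched on both strands. These were the E2F-type words TTTCCCGC, TTTCGCGC, TTTGCCGC, TTTGGCGC and TTCCCGCC (the first and last overlap by a run of 7 letters), the CCAAT box (CCAAT), the cell cycle homology word TTTGAA and the GC box (GGGCGG). The windows lie at chr7:102441545-102441694 on the plus strand (Rrm1), chr12:24708104-24708253 on the plus strand (Rrm2), chr5:30073626-30073775 on the minus strand (Tyms), chr7:38107491-38107640 on the minus strand (Ccne1), chr7:44548816-44548965 on the minus strand (Pold1), chr11:75348384-75348533 on the minus strand (Rpa1) and chr5:65335640-65335789 on the minus strand (Rfc1). The first 6 genes rose and Rfc1 fell.
Rrm1: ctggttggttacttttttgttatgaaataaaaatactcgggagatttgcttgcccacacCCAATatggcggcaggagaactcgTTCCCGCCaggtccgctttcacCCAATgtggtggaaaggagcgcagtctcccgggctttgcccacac
Rrm2: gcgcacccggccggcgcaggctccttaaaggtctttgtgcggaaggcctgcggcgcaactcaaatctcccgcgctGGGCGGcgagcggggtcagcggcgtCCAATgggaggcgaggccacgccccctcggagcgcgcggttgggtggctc
Tyms: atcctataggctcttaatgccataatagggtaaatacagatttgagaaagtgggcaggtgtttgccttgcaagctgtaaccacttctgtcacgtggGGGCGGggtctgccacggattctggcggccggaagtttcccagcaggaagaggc
Ccne1: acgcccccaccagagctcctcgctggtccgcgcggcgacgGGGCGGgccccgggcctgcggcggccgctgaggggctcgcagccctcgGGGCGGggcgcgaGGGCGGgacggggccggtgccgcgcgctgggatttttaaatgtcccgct
Pold1: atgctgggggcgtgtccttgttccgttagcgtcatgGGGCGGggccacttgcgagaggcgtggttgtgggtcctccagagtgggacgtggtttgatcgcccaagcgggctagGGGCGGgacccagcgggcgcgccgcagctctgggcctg
Rpa1: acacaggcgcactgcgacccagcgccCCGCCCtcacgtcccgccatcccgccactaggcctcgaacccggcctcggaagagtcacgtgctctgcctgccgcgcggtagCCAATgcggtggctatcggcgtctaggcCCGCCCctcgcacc
Rfc1: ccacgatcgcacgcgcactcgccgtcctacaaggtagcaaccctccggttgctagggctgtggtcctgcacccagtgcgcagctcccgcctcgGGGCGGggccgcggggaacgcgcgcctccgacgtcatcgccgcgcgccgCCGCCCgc
In these 150 bases Rrm1 held 1 E2F-type word and 2 CCAAT boxes, Rrm2 1 CCAAT box and 1 GC box, and Rpa1 1 CCAAT box and 2 GC boxes. Ccne1 held 3 GC boxes, Pold1 and Rfc1 2 each and Tyms 1, with no other motif searched. Over 250 bases before the start, an E2F-type word stood in 10 of the 43 windows (23.3%), against 3.24% of all 32851 windows, 8 of 27 windows (29.6%) of other replication factors and 1 of 21 windows (4.76%) of mitosis genes. The 10 genes were Orc1, Cdc6, Mcm5, Mcm6, Mcm7, Pola1, Prim1, Rfc3, Rrm1 and Chaf1a. CCAAT stood in 53.5% of the replication windows, 81.0% of the mitosis windows and 33.8% of all windows, and the GC box in 62.8%, 76.2% and 32.7%. TTTGAA stood in 9.30%, 33.3% and 16.0%. Windows of the other replication factors held CCAAT in 33.3%, the GC box in 81.5% and TTTGAA in 14.8%. A match describes the letters only, and no match says only that the letters are not in that window.

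The genes as a group were lowest in bone marrow Fr.A. Their mean log2 ratio per array was -0.33 to -0.28 in bone marrow Fr.A, -0.12 to -0.03 in bone marrow Fr.B/C, -0.19 to 0.01 in fetal liver Fr.A and -0.09 to 0.09 in fetal liver Fr.B/C. The bone marrow Fr.A arrays lay below the arrays of the other 3 groups, which overlapped one another in part. By role, the MCM genes had their highest median over arrays in bone marrow Fr.A (0.25, against 0.12 in bone marrow Fr.B/C). In fetal liver Fr.A and Fr.B/C it was 0.20 and 0.18. Polymerases delta and epsilon were lowest in fetal liver Fr.A (-0.13, against -0.04 in bone marrow Fr.A). The other roles had their lowest median in bone marrow Fr.A. The changes were small: the largest over the 4 comparisons of groups was 2.27-fold (Rrm2), 10 genes passed the test in no such comparison, and 3 (Ccne1, Rpa1 and Rrm1) passed in all 4. In a single comparison 22.8% to 32.3% of all genes passed. The shares of all genes passing in none or in all are not given here. Over those 4 comparisons 62 calls were made, of which 35 held whichever single array was left out and 15 held with array sets averaged. All 62 had the same direction on arrays 1 and 2 alone as on arrays 3 and 4 alone. The calls were made on these same arrays, which favours such agreement, so it is no separate test of them.

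**Figure D1:**
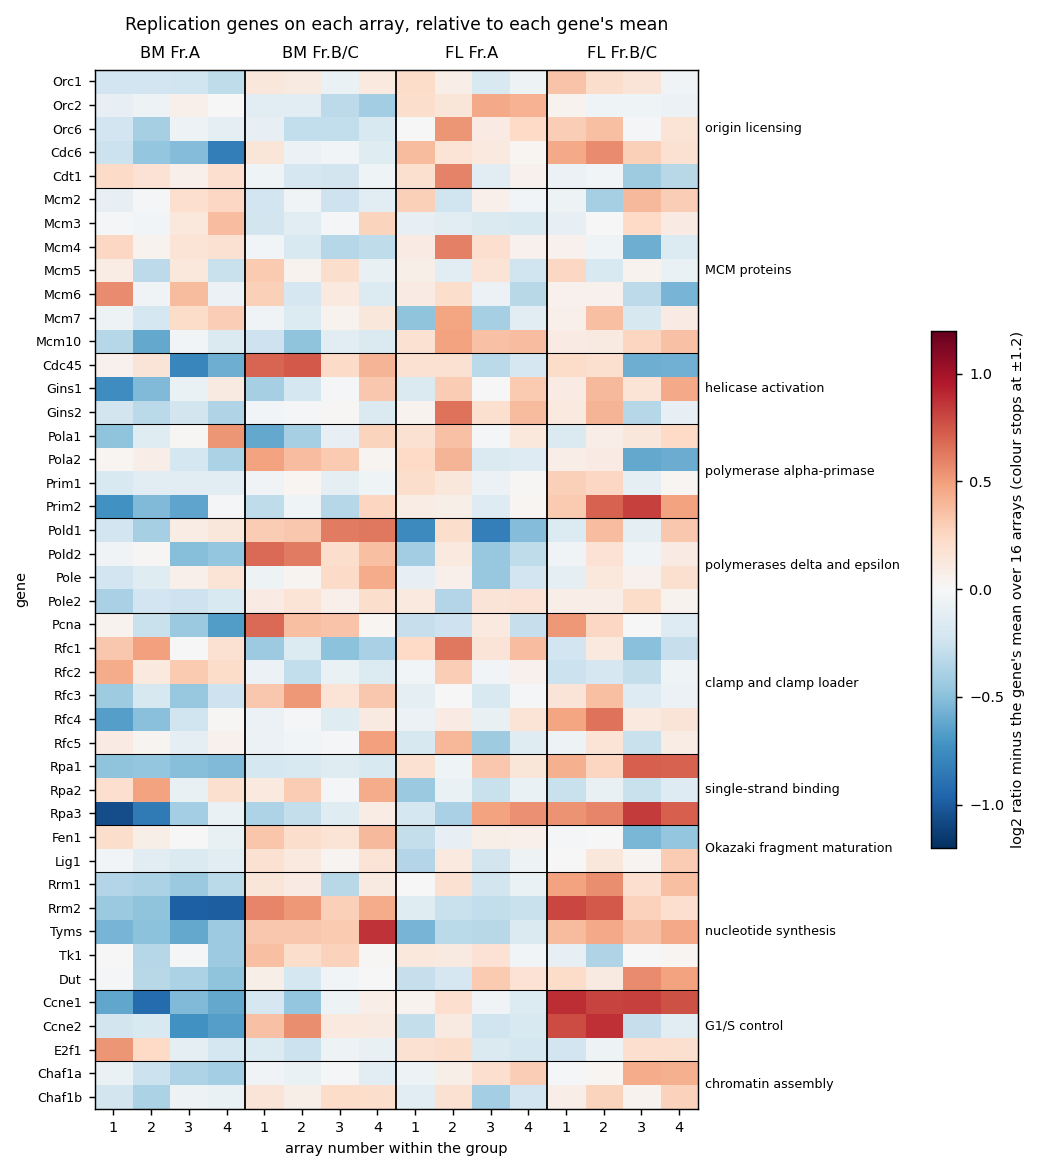
Heat map of the 44 replication genes (rows, grouped by role) on the 16 arrays (columns), coloured by the log2 ratio minus the gene's mean over all arrays, from blue (low) to red (high), with colours stopping at ±1.2. Bone marrow Fr.A is mostly blue in the nucleotide synthesis rows and Ccne1 is red on all 4 fetal liver Fr.B/C arrays, while most MCM rows show no common block.

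Fetal liver Fr.A was set against bone marrow Fr.A to compare the fetal with the adult cells at the earlier stage. In fetal liver, 14 of the 44 genes were higher and 1 was lower at a limma adjusted p under 0.05, where 29.6% of all genes tested passed (12.3% higher and 17.3% lower). The highest changes were of the single-strand binding subunits Rpa3 (0.71) and Rpa1 (0.64), the licensing factor Cdc6 (0.69), cyclin E1 (Ccne1, 0.69) and Mcm10 (0.64). The other genes higher were Gins2, Rrm2, Prim2, Orc6, Chaf1a, Rfc4, Rrm1, Orc2 and Tk1, and Rpa2 was lower. The median change was 0.21 over the 44 genes and -0.02 over all genes, and 31 of the 44 changes were above 0. Counted over the 44 genes whether called or not, values of the groups did not overlap for 13 that were higher and 1 that was lower. The shares of all genes were 10.8% and 15.4%. The gene that was lower without overlap was Mcm3, which was not called, while Rpa2 overlapped. With array sets averaged, Cdc6, Mcm10, Rpa1 and Ccne1 passed, and with median centring in place of loess 1 gene did.

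Fetal liver Fr.B/C against bone marrow Fr.B/C gave the same contrast at the pro-B stage. Here 10 genes were higher in fetal liver and 6 lower, against 13.9% and 14.7% of all genes tested (28.7% in either direction). Ccne1 (0.98), Rpa3 (0.85), Rpa1 (0.71) and Prim2 (0.69) led the genes that were higher, followed by Mcm10, Orc6, Rrm1, Cdc6, Dut and Rfc4. The genes lower were the helicase factor Cdc45 (-0.71), Pola2, the flap nuclease Fen1, Pold2, Rpa2 and Tk1. Called or not, values did not overlap for 12 genes that were higher (14.4% of all genes) and 4 that were lower (15.3%). The median change was 0.06, against 0.01 over all genes, and 25 changes were above 0. The split was 10 higher and 6 lower after loess but 2 higher and 3 lower after median centring, and with array sets averaged Prim2, Rpa1 and Ccne1 passed. Both tissue comparisons called 9 genes higher (Orc6, Cdc6, Mcm10, Prim2, Rfc4, Rpa1, Rpa3, Rrm1 and Ccne1) and 1 lower (Rpa2), while Tk1 passed in opposite directions. The share of all genes called in both is not given here. The tissue differences in Fr.A and Fr.B/C correlated at r = 0.64 across the 44 genes and r = 0.72 across all genes.

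In bone marrow, the step from Fr.A to Fr.B/C addressed how the genes change as adult cells pass from the pre-pro-B to the pro-B stage. There 18 genes rose and 2 fell, against 13.5% and 18.8% of all genes tested (32.3% in either direction). Ribonucleotide reductase subunit Rrm2 (1.18), thymidylate synthase Tyms (0.98), Cdc45 (0.81), Ccne2 (0.73), Pold2 (0.72) and the sliding clamp Pcna (0.69) rose most. Rfc3, Pold1, Ccne1, Tk1, Pole2, Rrm1, Chaf1b, Orc1, Rpa1, Lig1 and Mcm5 rose less, and the clamp loader genes Rfc1 and Rfc2 fell. The count of 18 includes Cdc6, which passed as a rise with the probe used (0.49) and as a fall with its second probe (-0.43). The median change was 0.24, against -0.04 over all genes, and 32 changes were above 0. Called or not, values did not overlap for 17 genes with a higher level in Fr.B/C (12.4% of all genes) and 5 with a lower one (17.1%). With array sets averaged Pold2, Rfc1, Rfc2, Rfc3, Rrm2 and Tyms passed, and median centring left 6 rises and no fall. The fetal liver against bone marrow comparison in Fr.A and this step share the bone marrow Fr.A arrays, and do not stand for separate evidence.

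In fetal liver the same step had 7 rises and 4 falls, against 10.1% and 12.8% of all genes tested (22.8% in either direction). Ccne1 (0.81), Tyms (0.75), Rrm2 (0.75), Pold1, Prim2, Rrm1 and Rpa1 rose, and Rfc1 (-0.57), Mcm4, Cdt1 and Orc2 fell. The median change was 0.12, against 0.00 over all genes, and 30 changes were above 0. Called or not, values did not overlap for 6 genes with a higher level in Fr.B/C (10.7% of all genes) and 4 with a lower one (13.5%). Averaged array sets left Tyms and Ccne1, and median centring left 4 rises and no fall. With the replicate number within a tissue as a random block 18 genes passed, among them Rpa3 at 0.56, Rfc2 at -0.27 and Lig1 at 0.25. Across the 44 genes the 2 steps, which share no array, correlated at r = 0.69 with the same sign for 34 genes (77.3%). Across all genes they correlated at r = 0.73, with the same sign for 68.2%. Genes are not independent replicates, and the reference is common to all arrays.

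The difference between the steps, tested as an interaction, passed for Tk1 (-0.62) and Rfc3 (-0.51), both lower in fetal liver, where 7.5% of all genes passed (4.47% higher and 3.03% lower). The median interaction was -0.04 over the 44 genes and 0.04 over all. With array sets averaged, no gene passed in limma, 2 having an unadjusted p under 0.05. With the replicate number as a block 4 genes passed when it was a fixed term and 5 when it was random, adding Cdc45 (-0.96) and Pola2 (-0.76) in both fits and Gins2 (-0.52) in the second.

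**Figure D2:**
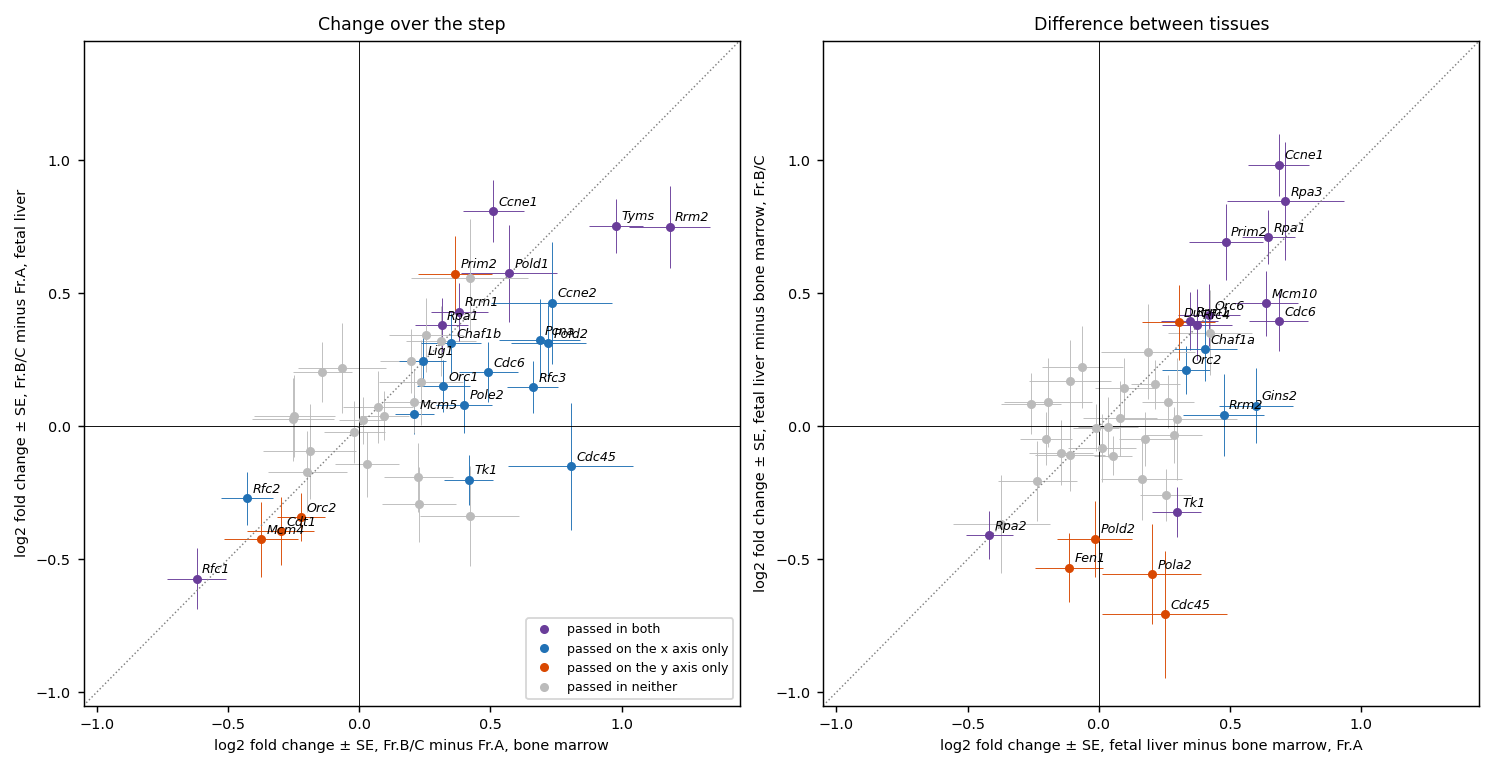
Log2 fold changes ± SE of the 44 genes, with the step in fetal liver against the step in bone marrow (left) and the tissue difference in Fr.B/C against that in Fr.A (right). The dotted line marks equal change, Rrm2, Tyms and Ccne1 lie far up the diagonal on the left, and Tk1 and Cdc45 lie off it in both panels.

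The origin licensing genes were higher in fetal liver for 3 of 5 genes in Fr.A and 2 of 5 in Fr.B/C, against 12.3% and 13.9% of all genes. Cdc6, the ATPase that loads the MCM ring with Cdt1, had log2 ratios of -0.42, -0.63, -0.69 and -0.99 in bone marrow Fr.A and 0.21, -0.0028, -0.05 and -0.15 in fetal liver Fr.A. In Fr.B/C they were -0.02, -0.23, -0.20 and -0.31 (bone marrow) and 0.29, 0.40, 0.12 and 0.02 (fetal liver). Every fetal liver array lay above every bone marrow array of the same fraction. The tissue difference was 0.69 ± 0.11 (SE, adjusted p = 0.000274) in Fr.A, 1.61-fold, and 0.40 ± 0.11 (SE, adjusted p = 0.0156) in Fr.B/C, which did not hold without fetal liver Fr.B/C array 2 (adjusted p = 0.0582). Over the step Cdc6 changed by 0.49 ± 0.11 (SE, adjusted p = 0.00319) in bone marrow and 0.20 ± 0.11 (SE, adjusted p = 0.238) in fetal liver. A second Cdc6 probe was also higher in fetal liver, 0.60 ± 0.12 (SE, adjusted p = 0.00161) and 0.49 ± 0.12 (SE, adjusted p = 0.00738), but the opposite step, -0.43 ± 0.12 (SE, adjusted p = 0.0142) in bone marrow and -0.54 ± 0.12 (SE, adjusted p = 0.00441) in fetal liver; with the mean over probes the bone marrow step was 0.03 (adjusted p = 0.798), and no direction of the Cdc6 step is drawn here.

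Orc2, a core subunit of the origin recognition complex, had -0.97, -0.93, -0.81 and -0.87 in bone marrow Fr.A and -0.66, -0.73, -0.41 and -0.45 in fetal liver Fr.A. In Fr.B/C the ratios were -0.996, -0.999, -1.18 and -1.29 and -0.83, -0.93, -0.92 and -0.94. Fetal liver was above bone marrow without overlap in both fractions, and Fr.B/C was below Fr.A without overlap in both tissues. The difference passed in Fr.A at 0.33 ± 0.09 (SE, adjusted p = 0.0119) and not in Fr.B/C at 0.21 ± 0.09 (SE, adjusted p = 0.0964). The fall over the step passed in fetal liver at -0.34 ± 0.09 (SE, adjusted p = 0.0125) and not in bone marrow at -0.22 ± 0.09 (SE, adjusted p = 0.0781). The fetal liver fall was lost without fetal liver Fr.A array 3 or 4 (adjusted p = 0.0506 to 0.0507), and the bone marrow fall passed with the random replicate block (adjusted p = 0.042). Cdt1, the partner of Cdc6 that geminin blocks, had 0.19, 0.13, 0.02 and 0.16 and -0.09, -0.24, -0.26 and -0.10 in bone marrow Fr.A and Fr.B/C. In fetal liver it had 0.16, 0.56, -0.17 and 0.01 and -0.11, -0.07, -0.47 and -0.37, with array 2 of Fr.A the highest of all. Its step was -0.30 ± 0.13 (SE, adjusted p = 0.0914) in bone marrow, where the groups did not overlap, and -0.39 ± 0.13 (SE, adjusted p = 0.0371) in fetal liver, where they did. The fetal liver fall was lost without fetal liver Fr.A array 1 or 2 or fetal liver Fr.B/C array 3 or 4 (adjusted p = 0.0894 to 0.121), and the bone marrow fall passed with the replicate number as a fixed block (adjusted p = 0.0383). Orc6, a smaller subunit of the complex, was 0.42 higher in fetal liver in both fractions (adjusted p = 0.0129 and 0.014) and had a step of -0.02 in either tissue. Orc1, the ATPase subunit, rose over the bone marrow step by 0.32 ± 0.10 (SE, adjusted p = 0.0214), lost without bone marrow Fr.A array 4 or bone marrow Fr.B/C array 1, 2 or 4 (adjusted p = 0.0535 to 0.0588).

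The MCM proteins, which form the core of the helicase, gave 1 call among 7 genes in each of the 4 comparisons. In either direction, 29.6% and 28.7% of all genes passed between tissues in Fr.A and Fr.B/C. Over the step 32.3% did in bone marrow and 22.8% in fetal liver, so the MCM share (14.3%) was lower. In the direction of each call the share was near those of all genes. These were 12.3% and 13.9% higher in fetal liver Fr.A and Fr.B/C, 13.5% rising in bone marrow and 12.8% falling in fetal liver. In both tissue comparisons the gene called was Mcm10, a helicase co-factor outside the ring. Its log2 ratios were -0.44, -0.71, -0.13 and -0.27 in bone marrow Fr.A and -0.35, -0.58, -0.23 and -0.27 in Fr.B/C. Fetal liver had 0.09, 0.39, 0.25 and 0.27 and 0.0042, 0.01, 0.16 and 0.25, above every bone marrow array of the same fraction. The difference was 0.64 ± 0.12 (SE, adjusted p = 0.000938) in Fr.A, 1.55-fold, and 0.46 ± 0.12 (SE, adjusted p = 0.0097) in Fr.B/C. Over the step it changed by 0.03 ± 0.12 in bone marrow and -0.14 ± 0.12 in fetal liver (SE), which did not pass.

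Among the ring subunits, Mcm4 had 0.03, -0.17, -0.05 and -0.03 in bone marrow Fr.A and -0.24, -0.40, -0.56 and -0.51 in Fr.B/C. In fetal liver it had -0.11, 0.39, -0.01 and -0.16 in Fr.A, with array 2 apart from the other 3, and -0.16, -0.26, -0.80 and -0.37 in Fr.B/C. The groups did not overlap over the step in bone marrow (-0.37 ± 0.14, adjusted p = 0.0529), where the fall passed with the replicate number as a fixed (adjusted p = 0.0282) or random block (adjusted p = 0.0178), and met closely in fetal liver, where the fall passed (-0.42 ± 0.14, adjusted p = 0.0392) but was lost without fetal liver Fr.A array 2 or 3 or fetal liver Fr.B/C array 3 or 4 (adjusted p = 0.0763 to 0.145). Mcm5 had 0.41, 0.01, 0.45 and 0.06 in bone marrow Fr.A and 0.64, 0.37, 0.53 and 0.24 in Fr.B/C, higher on arrays 1 and 3, which carry the sample in Cy5, than on arrays 2 and 4. With the dye term its rise of 0.21 ± 0.07 (SE, adjusted p = 0.0381) passed although the groups overlapped, and it was lost with scan session as a fixed block (adjusted p = 0.0939) and without bone marrow Fr.A array 1, 2 or 4 or bone marrow Fr.B/C array 1 or 2 (adjusted p = 0.0549 to 0.101). Fetal liver Mcm5 was 0.39, 0.19, 0.49 and 0.08 in Fr.A and 0.57, 0.14, 0.37 and 0.25 in Fr.B/C, a change of 0.05 ± 0.07 (SE, adjusted p = 0.737). Mcm2, Mcm3, Mcm6 and Mcm7 passed in none of the 4 comparisons, with changes from -0.26 (Mcm3, tissue difference in Fr.A) to 0.22 (Mcm2, the same in Fr.B/C). Mcm3 in Fr.A reached an adjusted p of 0.0499 with the fixed replicate block. That block joins same-numbered arrays of tissues that share no sort. A second Mcm3 probe differed from the one used in Fr.B/C, at -0.59 ± 0.18 (SE, adjusted p = 0.0235) against 0.09 ± 0.11.

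The helicase activators differed from one another. Cdc45, which joins the MCM ring and GINS, had -0.76, -0.65, -1.59 and -1.39 in bone marrow Fr.A and -0.11, -0.08, -0.58 and -0.40 in bone marrow Fr.B/C. Fetal liver had -0.62, -0.62, -1.13 and -1.01 in Fr.A and -0.59, -0.62, -1.40 and -1.38 in Fr.B/C. Bone marrow Fr.B/C was the highest group, arrays 1 and 2 lay above arrays 3 and 4 in every group, and the other 3 groups overlapped. Its rise in bone marrow was 0.81 ± 0.24 (SE, adjusted p = 0.0162), 1.75-fold, and its difference between tissues in Fr.B/C -0.71 ± 0.24 (SE, adjusted p = 0.0365). The fetal liver step was -0.15 ± 0.24 (SE, adjusted p = 0.733) and the interaction -0.96 ± 0.34 (SE, adjusted p = 0.106). The bone marrow rise was lost without bone marrow Fr.A array 3 or 4 or bone marrow Fr.B/C array 1 or 2 (adjusted p = 0.0501 to 0.0631) and the Fr.B/C difference without bone marrow Fr.B/C array 1 or 2 or fetal liver Fr.B/C array 3 or 4 (adjusted p = 0.101 to 0.132).

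Gins2, a subunit of the GINS complex, had -0.12, -0.23, -0.12 and -0.26 in bone marrow Fr.A and 0.14, 0.75, 0.29 and 0.48 in fetal liver Fr.A, without overlap. In Fr.B/C the ratios were 0.06, 0.07, 0.11 and -0.07 and 0.22, 0.51, -0.25 and 0.0021, the fetal liver arrays lying on both sides of bone marrow. The tissue difference was 0.60 ± 0.14 (SE, adjusted p = 0.00441) in Fr.A and 0.08 ± 0.14 (SE, adjusted p = 0.726) in Fr.B/C. Gins1, another subunit, passed in no comparison with the probe used, which had 0.42 ± 0.16 (SE, adjusted p = 0.059) in Fr.A. It passed there with the replicate number as a fixed (adjusted p = 0.0108) or random block (adjusted p = 0.0368). The fixed block joins same-numbered arrays of tissues that share no sort. A second Gins1 probe gave 0.46 ± 0.09 (SE, adjusted p = 0.00104) in Fr.A and 0.31 ± 0.09 (SE, adjusted p = 0.0143) for the bone marrow step.

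Of polymerase alpha and its primase, which lay the RNA and DNA primers, Prim2 was the gene that changed most. Prim2, the large primase subunit, had -3.65, -3.46, -3.56 and -2.94 in bone marrow Fr.A and -3.24, -2.98, -3.27 and -2.67 in Fr.B/C. Fetal liver had -2.84, -2.86, -3.08 and -2.90 in Fr.A and -2.61, -2.22, -2.10 and -2.45 in Fr.B/C. All ratios were far below 0, the reference spot being the brighter, and fetal liver Fr.B/C was the highest group on every array. The tissue difference was 0.48 ± 0.14 (SE, adjusted p = 0.0171) in Fr.A, lost without bone marrow Fr.A array 1 or 2 or fetal liver Fr.A array 1 (adjusted p = 0.052 to 0.0577) and at 0.08 with scaling between arrays (adjusted p = 0.817), and 0.69 ± 0.14 (SE, adjusted p = 0.00173) in Fr.B/C, 1.62-fold. The step was 0.36 ± 0.14 (SE, adjusted p = 0.0619) in bone marrow, which passed with the replicate number as a random block (adjusted p = 0.018), and 0.57 ± 0.14 (SE, adjusted p = 0.00737) in fetal liver.

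Pola2, the regulatory subunit of polymerase alpha, had -0.56, -0.50, -0.79 and -0.96 in bone marrow Fr.A and -0.10, -0.21, -0.27 and -0.55 in Fr.B/C. Fetal liver had -0.35, -0.17, -0.75 and -0.74 in Fr.A and -0.50, -0.49, -1.20 and -1.18 in Fr.B/C, with arrays 3 and 4 lowest. The Fr.B/C tissue difference of -0.56 ± 0.19 (SE, adjusted p = 0.0372) passed with overlapping groups and was lost without bone marrow Fr.B/C array 1, 2 or 3 or fetal liver Fr.B/C array 3 or 4 (adjusted p = 0.0665 to 0.131). With the replicate number as a fixed block Pola2 rose over the bone marrow step (0.42, adjusted p = 0.00334) and fell over that in fetal liver (-0.34, adjusted p = 0.0186), whereas without the block neither passed (adjusted p = 0.105 and 0.24). Pola1, the catalytic subunit, and Prim1, the small primase subunit, passed in no comparison, with changes of -0.19 to 0.28 and 0.04 to 0.22.

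Genes of the polymerases that extend primers rose over the step for 3 of 4 members in bone marrow and 1 of 4 in fetal liver, against 13.5% and 10.1% of all genes. Pold2, the accessory subunit of polymerase delta, had -0.57, -0.50, -1.04 and -0.98 in bone marrow Fr.A and 0.16, 0.10, -0.31 and -0.16 in bone marrow Fr.B/C, without overlap. Fetal liver had -0.94, -0.40, -0.98 and -0.83 in Fr.A and -0.57, -0.35, -0.56 and -0.42 in Fr.B/C, which overlapped through array 2 of Fr.A. Its rise was 0.72 ± 0.14 (SE, adjusted p = 0.00103) in bone marrow, 1.65-fold, against 0.31 ± 0.14 (SE, adjusted p = 0.142) in fetal liver, which passed with the replicate number as a fixed block (adjusted p = 0.0403). The difference between the steps did not pass (-0.41 ± 0.20, adjusted p = 0.274). In Fr.B/C the tissue difference was -0.42 ± 0.14 (SE, adjusted p = 0.0371), which did not hold without bone marrow Fr.B/C array 1 or 2 or any fetal liver Fr.B/C array (adjusted p = 0.0579 to 0.138).

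Pole2, a subunit of polymerase epsilon, had -0.27, -0.11, -0.13 and -0.06 in bone marrow Fr.A and 0.22, 0.29, 0.18 and 0.33 in bone marrow Fr.B/C. Fetal liver had 0.24, -0.23, 0.27 and 0.29 in Fr.A and 0.20, 0.20, 0.34 and 0.16 in Fr.B/C, where array 2 of Fr.A was well below the other 3. The bone marrow groups did not overlap and Pole2 rose by 0.40 ± 0.11 (SE, adjusted p = 0.00849), while the fetal liver step was 0.08 ± 0.11 (SE, adjusted p = 0.668). Pold1, the catalytic subunit of polymerase delta, ranged over 0.11 to 0.64 and 0.81 to 1.14 in bone marrow Fr.A and Fr.B/C and over -0.31 to 0.72 and 0.35 to 0.88 in fetal liver. It rose by 0.57 ± 0.18 (SE, adjusted p = 0.0258) and 0.58 ± 0.18 (SE, adjusted p = 0.0331), and a second probe gave 0.56 ± 0.17 (SE, adjusted p = 0.0176) and 0.53 ± 0.17 (SE, adjusted p = 0.0319). The bone marrow rise was lost without bone marrow Fr.A array 2 or bone marrow Fr.B/C array 3 or 4 (adjusted p = 0.0555 to 0.094) and the fetal liver rise without fetal liver Fr.A array 1, 3 or 4 or fetal liver Fr.B/C array 2, 3 or 4 (adjusted p = 0.0516 to 0.105). Pole, the catalytic subunit of polymerase epsilon, passed in no comparison (changes of -0.14 to 0.25).

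The clamp loader genes moved in both directions over the step. Rfc1, the large subunit of replication factor C, had 0.01, 0.18, -0.31 and -0.13 in bone marrow Fr.A and -0.75, -0.48, -0.80 and -0.70 in Fr.B/C. Fetal liver had -0.08, 0.32, -0.16 and 0.05 in Fr.A and -0.55, -0.20, -0.82 and -0.59 in Fr.B/C. The later fraction lay below the earlier one without overlap in both tissues. The change was -0.62 ± 0.11 (SE, adjusted p = 0.000531), 1.54-fold lower, in bone marrow and -0.57 ± 0.11 (SE, adjusted p = 0.00151), 1.49-fold lower, in fetal liver. The tissue differences of 0.10 ± 0.11 (Fr.A) and 0.14 ± 0.11 (Fr.B/C) did not pass.

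Rfc3, a small subunit of the loader, had -0.70, -0.46, -0.72 and -0.51 in bone marrow Fr.A and 0.06, 0.25, -0.11 and 0.05 in bone marrow Fr.B/C. Fetal liver had -0.38, -0.26, -0.45 and -0.28 in Fr.A and -0.11, 0.10, -0.42 and -0.34 in Fr.B/C. The bone marrow groups were apart and the fetal liver groups overlapped. The step was 0.66 ± 0.10 (SE, adjusted p = 7.33e-05) in bone marrow, 1.58-fold, and 0.15 ± 0.10 (SE, adjusted p = 0.331) in fetal liver. The interaction of -0.51 ± 0.14 (SE, adjusted p = 0.0333) passed but was lost with array sets averaged (adjusted p = 0.489) and without bone marrow Fr.A array 1, 3 or 4, bone marrow Fr.B/C array 1 or 2, fetal liver Fr.A array 1, 3 or 4 or fetal liver Fr.B/C array 3 or 4 (adjusted p = 0.0507 to 0.0782). Between tissues Rfc3 had 0.26 ± 0.10 (SE, adjusted p = 0.0608) in Fr.A and -0.26 ± 0.10 (SE, adjusted p = 0.0589) in Fr.B/C, neither of which passed without the replicate number as a fixed block (adjusted p = 0.0255 and 0.0244 with it). That block joins same-numbered arrays of tissues that share no sort.

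Rfc2, another small subunit, had 1.08, 0.75, 0.94 and 0.84 in bone marrow Fr.A and 0.56, 0.33, 0.55 and 0.47 in Fr.B/C. Fetal liver had 0.60, 0.93, 0.60 and 0.68 in Fr.A and 0.37, 0.43, 0.34 and 0.57 in Fr.B/C, so that Fr.B/C was lower without overlap in both tissues. The change was -0.43 ± 0.10 (SE, adjusted p = 0.00355) in bone marrow and -0.27 ± 0.10 (SE, adjusted p = 0.0638) in fetal liver, which passed with the random replicate block (adjusted p = 0.0166). A second Rfc2 probe had -0.25 ± 0.12 (SE, adjusted p = 0.137) and -0.36 ± 0.12 (SE, adjusted p = 0.0449). Rfc4 was higher in fetal liver by 0.37 ± 0.13 (SE, adjusted p = 0.0446) in Fr.A and 0.38 ± 0.13 (SE, adjusted p = 0.0413) in Fr.B/C. The calls were lost with the random replicate block (adjusted p = 0.0553 and 0.0512) and with scan session as a random block (adjusted p = 0.0974 and 0.0572), and the first also without bone marrow Fr.A array 1 or 2, any bone marrow Fr.B/C array or any fetal liver Fr.A array (adjusted p = 0.0526 to 0.144) and the second without any bone marrow Fr.B/C array, fetal liver Fr.A array 3 or 4 or fetal liver Fr.B/C array 1 or 2 (adjusted p = 0.0513 to 0.126). Rfc5 passed in no comparison. Pcna, the clamp itself, rose over the bone marrow step by 0.69 ± 0.15 (SE, adjusted p = 0.0027) with arrays at -0.68 to 0.04 in Fr.A and 0.01 to 0.68 in Fr.B/C, which overlapped at 1 array each. Its fetal liver step was 0.32 ± 0.15 (SE, adjusted p = 0.16), with 1 saturated spot in Fr.B/C.

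All 3 subunits of the single-strand binding protein passed between tissues in both fractions, Rpa1 and Rpa3 higher and Rpa2 lower in fetal liver. Of all genes, 29.6% passed in either direction between tissues at the earlier stage and 28.7% at the later one. With array sets averaged, Rpa1 passed in both of these comparisons and Rpa2 and Rpa3 in neither. Rpa1, the large subunit that binds DNA, had -0.75, -0.74, -0.77 and -0.79 in bone marrow Fr.A and -0.48, -0.45, -0.41 and -0.45 in Fr.B/C. Fetal liver had -0.09, -0.32, 0.06 and -0.12 and 0.16, -0.01, 0.45 and 0.44, above every bone marrow array of the same fraction. The difference was 0.64 ± 0.10 (SE, adjusted p = 0.000171) in Fr.A, 1.56-fold, and 0.71 ± 0.10 (SE, adjusted p = 7.99e-05) in Fr.B/C, 1.64-fold. Rpa1 also rose over the step, by 0.31 ± 0.10 (SE, adjusted p = 0.0256) in bone marrow and 0.38 ± 0.10 (SE, adjusted p = 0.0118) in fetal liver, the first of which was lost without bone marrow Fr.A array 1, 3 or 4 or bone marrow Fr.B/C array 2, 3 or 4 (adjusted p = 0.0506 to 0.0643).

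Rpa3, the small subunit, had -1.71, -1.49, -1.05 and -0.73 in bone marrow Fr.A and -1.02, -0.93, -0.79 and -0.56 in Fr.B/C. Fetal liver had -0.85, -1.03, -0.16 and -0.09 in Fr.A and -0.11, -0.06, 0.19 and 0.07 in Fr.B/C. Arrays 3 and 4 were above arrays 1 and 2 in every group, and within either set fetal liver was above bone marrow. The difference was 0.71 ± 0.22 (SE, adjusted p = 0.0248) in Fr.A, lost without bone marrow Fr.A array 1 or 2 or fetal liver Fr.A array 3 or 4 (adjusted p = 0.0782 to 0.0943), and 0.85 ± 0.22 (SE, adjusted p = 0.00966) in Fr.B/C, 1.8-fold. With the replicate number as a fixed block the rise over the step passed in bone marrow (0.42, adjusted p = 0.0174) and in fetal liver (0.56, adjusted p = 0.00404), and without it neither did (adjusted p = 0.174 and 0.0888).

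Rpa2, the middle subunit that is phosphorylated after damage, had 0.21, 0.49, -0.08 and 0.20 in bone marrow Fr.A and 0.13, 0.31, -0.01 and 0.45 in Fr.B/C. Fetal liver had -0.44, -0.07, -0.26 and -0.07 and -0.26, -0.09, -0.26 and -0.15. The groups did not overlap in Fr.B/C and touched in Fr.A, where bone marrow array 3 was as low as fetal liver arrays 2 and 4. Rpa2 was lower in fetal liver, with differences of -0.42 ± 0.09 (SE, adjusted p = 0.00215) in Fr.A, 1.34-fold, and -0.41 ± 0.09 (SE, adjusted p = 0.00277) in Fr.B/C. Over the step it changed by 0.01 ± 0.09 and 0.02 ± 0.09 (SE), which did not pass in either tissue.

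**Figure D3:**
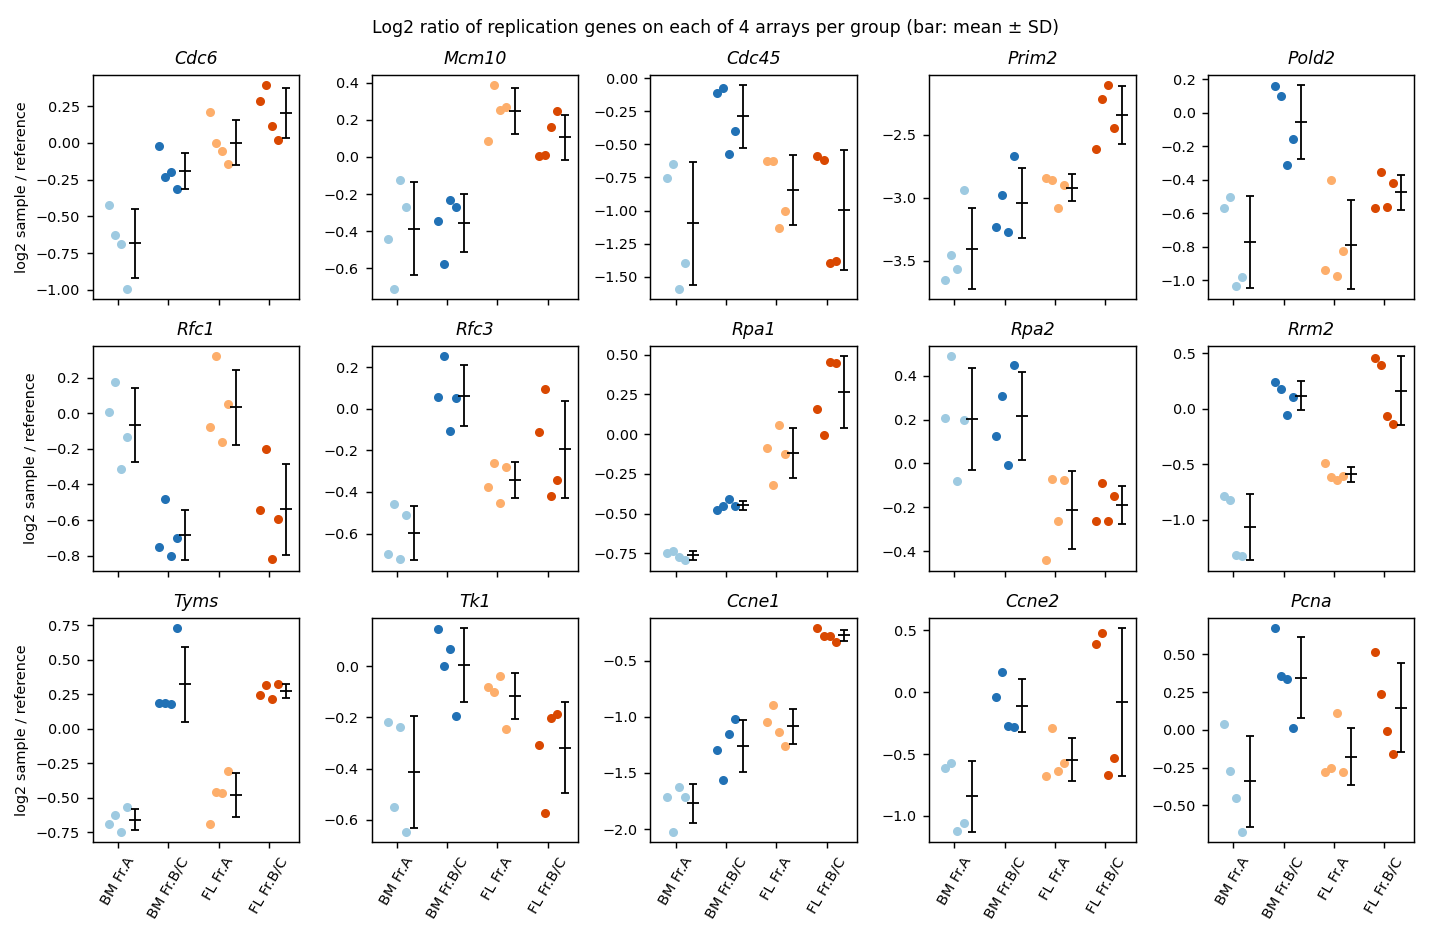
Log2 ratio of sample over reference on each array for 15 replication genes, with bone marrow in blue and fetal liver in orange, Fr.A pale and Fr.B/C dark, and the mean ± SD of 4 arrays beside the points. Rpa1 and Mcm10 separate by tissue, Tyms, Rrm2 and Rfc1 by fraction, and Ccne1 by both, with all 4 fetal liver Fr.B/C arrays between -0.33 and -0.21.

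Of the genes that finish lagging strand fragments, Fen1 was lower in fetal liver Fr.B/C and Lig1 rose over the bone marrow step. Fen1, the flap endonuclease, had 0.36, 0.22, 0.15 and 0.06 in bone marrow Fr.A and 0.49, 0.36, 0.31 and 0.54 in Fr.B/C. Fetal liver had -0.14, 0.05, 0.22 and 0.21 and 0.13, 0.15, -0.40 and -0.32, with Fr.B/C arrays 3 and 4 lowest of all. In Fr.B/C fetal liver was below bone marrow on every array, with a difference of -0.53 ± 0.13 (SE, adjusted p = 0.00629), 1.45-fold, while the Fr.A difference was -0.11 ± 0.13 (SE, adjusted p = 0.576). Lig1, the ligase that seals the fragments, had 0.41, 0.31, 0.26 and 0.31 in bone marrow Fr.A and 0.62, 0.56, 0.48 and 0.60 in Fr.B/C. Fetal liver had 0.09, 0.56, 0.22 and 0.38 and 0.44, 0.58, 0.47 and 0.75. The bone marrow rise of 0.24 ± 0.09 (SE, adjusted p = 0.0478) passed with groups that did not overlap. It was lost with the replicate number as a fixed block (adjusted p = 0.0535), with scan session as a fixed block (adjusted p = 0.151) and without bone marrow Fr.A array 2, 3 or 4, any bone marrow Fr.B/C array, fetal liver Fr.A array 3 or 4 or fetal liver Fr.B/C array 1, 2 or 3 (adjusted p = 0.0507 to 0.153). The fetal liver step of 0.25 ± 0.09 (SE, adjusted p = 0.0565) did not pass, except with the random replicate block (adjusted p = 0.0165).

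The nucleotide synthesis genes rose over the step for 4 of 5 members in bone marrow and 3 of 5 in fetal liver, against 13.5% and 10.1% of all genes. Rrm2, the subunit of ribonucleotide reductase made in S phase, had -0.79, -0.82, -1.32 and -1.33 in bone marrow Fr.A and 0.24, 0.18, -0.05 and 0.10 in bone marrow Fr.B/C. Fetal liver had -0.49, -0.62, -0.64 and -0.61 in Fr.A and 0.46, 0.40, -0.07 and -0.14 in Fr.B/C. The later fraction was above the earlier on every array of both tissues. The rise was 1.18 ± 0.15 (SE, adjusted p = 2.26e-05) in bone marrow, 2.27-fold, and 0.75 ± 0.15 (SE, adjusted p = 0.00197) in fetal liver, 1.68-fold, and the difference between the steps did not pass (-0.43 ± 0.22, adjusted p = 0.282). In Fr.A fetal liver was higher by 0.48 ± 0.15 (SE, adjusted p = 0.0291), lost without bone marrow Fr.A array 3 or 4 or fetal liver Fr.A array 1, 2 or 4 (adjusted p = 0.0507 to 0.1), and in Fr.B/C the tissues differed by 0.04 ± 0.15 (SE, adjusted p = 0.867).

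Tyms, which makes thymidylate from deoxyuridylate, had -0.69, -0.63, -0.75 and -0.57 in bone marrow Fr.A and 0.19, 0.18, 0.18 and 0.73 in Fr.B/C, array 4 standing above the other 3. Fetal liver had -0.69, -0.46, -0.47 and -0.31 in Fr.A and 0.24, 0.31, 0.21 and 0.32 in Fr.B/C. The fractions were apart in both tissues and the tissues overlapped within each fraction. Tyms rose by 0.98 ± 0.10 (SE, adjusted p = 2.13e-06) in bone marrow, 1.97-fold, and by 0.75 ± 0.10 (SE, adjusted p = 4.65e-05) in fetal liver, 1.69-fold. A second Tyms probe gave rises of 0.88 ± 0.11 (SE, adjusted p = 1.54e-05) and 0.70 ± 0.11 (SE, adjusted p = 0.000198), and a tissue difference in Fr.A of 0.39 ± 0.11 (SE, adjusted p = 0.0131) where the probe used had 0.18 ± 0.10. Rrm1, the large reductase subunit, ranged over 0.10 to 0.22 and 0.21 to 0.69 in bone marrow Fr.A and Fr.B/C and over 0.32 to 0.72 and 0.74 to 1.101 in fetal liver. It passed in all 4 comparisons, at 0.35 ± 0.11 (SE, adjusted p = 0.0244) and 0.40 ± 0.11 (SE, adjusted p = 0.0124) between tissues. Over the step it rose by 0.38 ± 0.11 (SE, adjusted p = 0.013) and 0.43 ± 0.11 (SE, adjusted p = 0.00856). The Fr.A difference was lost without bone marrow Fr.A array 2 or 4 or fetal liver Fr.A array 1 or 2 (adjusted p = 0.0528 to 0.0723) and the bone marrow rise without bone marrow Fr.B/C array 1 (adjusted p = 0.054).

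Tk1, the salvage kinase of thymidine, had -0.22, -0.55, -0.24 and -0.65 in bone marrow Fr.A and 0.15, 0.0016, 0.06 and -0.19 in Fr.B/C. Fetal liver had -0.08, -0.10, -0.04 and -0.25 in Fr.A and -0.31, -0.57, -0.20 and -0.19 in Fr.B/C. Bone marrow rose without overlap and fetal liver moved down with overlap. The step was 0.42 ± 0.09 (SE, adjusted p = 0.00256) in bone marrow and -0.20 ± 0.09 (SE, adjusted p = 0.147) in fetal liver, and their difference of -0.62 ± 0.13 (SE, adjusted p = 0.0091) passed, though not with array sets averaged (adjusted p = 0.284). Between tissues Tk1 was higher in fetal liver Fr.A by 0.30 ± 0.09 (SE, adjusted p = 0.0251) and lower in Fr.B/C, with a difference of -0.32 ± 0.09 (SE, adjusted p = 0.0166). The first was lost with scan session as a random block (adjusted p = 0.0558) and without bone marrow Fr.A array 2 or 4 or fetal liver Fr.A array 2 (adjusted p = 0.0597 to 0.0848), the second without bone marrow Fr.B/C array 2 or fetal liver Fr.B/C array 1 or 2 (adjusted p = 0.0507 to 0.0605). Dut, which removes dUTP, was higher in fetal liver Fr.B/C by 0.39 ± 0.14 (SE, adjusted p = 0.0486). That call was lost without bone marrow Fr.A array 2, 3 or 4, any bone marrow Fr.B/C array or fetal liver Fr.B/C array 3 or 4 (adjusted p = 0.0526 to 0.153).

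Of the genes that control entry into S phase, Ccne1 changed in all 4 comparisons. Ccne1 had -1.72, -2.02, -1.62 and -1.71 in bone marrow Fr.A and -1.30, -1.56, -1.16 and -1.02 in Fr.B/C. Fetal liver had -1.05, -0.89, -1.14 and -1.26 in Fr.A and -0.21, -0.28, -0.28 and -0.33 in Fr.B/C. The groups overlapped in none of the 4 comparisons, bone marrow Fr.A being lowest and fetal liver Fr.B/C highest, while bone marrow Fr.B/C and fetal liver Fr.A shared a range. Fetal liver was higher by 0.69 ± 0.12 (SE, adjusted p = 0.000345) in Fr.A, 1.61-fold, and by 0.98 ± 0.12 (SE, adjusted p = 1.33e-05) in Fr.B/C, 1.98-fold. The step was 0.51 ± 0.12 (SE, adjusted p = 0.00294) in bone marrow, which did not pass with array sets averaged (adjusted p = 0.0708), and 0.81 ± 0.12 (SE, adjusted p = 8.86e-05) in fetal liver. The difference between the steps did not pass (0.30 ± 0.16, adjusted p = 0.334). A second probe gave 0.68 ± 0.10 (SE, adjusted p = 8.39e-05) in Fr.A, 0.79 ± 0.10 (SE, adjusted p = 2.37e-05) in Fr.B/C, and steps of 0.64 ± 0.10 (SE, adjusted p = 0.000112) and 0.75 ± 0.10 (SE, adjusted p = 3.74e-05).

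Ccne2, the second E cyclin, had -0.61, -0.57, -1.12 and -1.06 in bone marrow Fr.A and -0.04, 0.16, -0.27 and -0.28 in Fr.B/C. Fetal liver had -0.68, -0.29, -0.64 and -0.57 in Fr.A and 0.39, 0.48, -0.67 and -0.53 in Fr.B/C. In that last group arrays 1 and 2 lay far above arrays 3 and 4, which lay within the range of Fr.A. The bone marrow rise was 0.73 ± 0.23 (SE, adjusted p = 0.0227), without overlap, and it was lost without bone marrow Fr.A array 3 or 4 or bone marrow Fr.B/C array 1 or 2 (adjusted p = 0.0602 to 0.0742). The fetal liver step of 0.46 ± 0.23 (SE, adjusted p = 0.178) passed with the replicate number as a fixed block (adjusted p = 0.0266). The tissue differences of 0.30 ± 0.23 (Fr.A) and 0.03 ± 0.23 (Fr.B/C) did not pass. E2f1, a factor that activates these genes, passed in no comparison (changes of -0.25 to 0.17).

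Chromatin assembly factor 1 places histones on new DNA, and its 2 large subunits changed in different comparisons. Chaf1a had -0.43, -0.61, -0.73 and -0.76 in bone marrow Fr.A and -0.41, -0.28, -0.16 and -0.06 in fetal liver Fr.A, without overlap. In Fr.B/C it had -0.40, -0.44, -0.38 and -0.48 and -0.37, -0.33, 0.09 and 0.07, also without overlap. Its tissue difference was 0.41 ± 0.12 (SE, adjusted p = 0.0173) in Fr.A, lost without bone marrow Fr.A array 3 or 4 or fetal liver Fr.A array 3 or 4 (adjusted p = 0.0501 to 0.0656), and 0.29 ± 0.12 (SE, adjusted p = 0.0817) in Fr.B/C. Chaf1b had 0.33, 0.16, 0.48 and 0.47 in bone marrow Fr.A and 0.70, 0.62, 0.77 and 0.76 in Fr.B/C, without overlap. Fetal liver had 0.41, 0.73, 0.13 and 0.31 and 0.62, 0.81, 0.58 and 0.82, with overlap. Its step was 0.35 ± 0.11 (SE, adjusted p = 0.0268) in bone marrow, lost without bone marrow Fr.A array 2 or bone marrow Fr.B/C array 1, 3 or 4 (adjusted p = 0.0538 to 0.0963), and 0.31 ± 0.11 (SE, adjusted p = 0.0599) in fetal liver, which passed with the random replicate block (adjusted p = 0.0146).

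Other genes of the same processes were counted from lists. Beside these and the mitosis genes below, 12.3% of all genes were higher and 17.3% lower in fetal liver Fr.A. In Fr.B/C the shares of all genes were 13.9% and 14.7%. Over the step 13.5% of all genes rose and 18.8% fell in bone marrow, and 10.1% rose and 12.8% fell in fetal liver. Of 29 other replication factors, 8 (27.6%) were higher and none lower in fetal liver Fr.A, against 3 (10.3%) and 2 (6.90%) in Fr.B/C. Neither share in Fr.B/C was above that of all genes. Over the step 7 (24.1%) rose and 3 (10.3%) fell in bone marrow, and 4 (13.8%) rose and 5 (17.2%) fell in fetal liver. Dna2, a nuclease and helicase of flap removal, was higher in fetal liver Fr.A (0.92 ± 0.11) and rose over the bone marrow step (0.73 ± 0.11). Pold4, the smallest subunit of polymerase delta, rose over the step in bone marrow (0.92 ± 0.10) and fetal liver (0.48 ± 0.10) and was lower in fetal liver Fr.B/C (-0.67 ± 0.10). Top1, which relaxes supercoils ahead of the fork, fell in fetal liver (-1.100 ± 0.19) and bone marrow (-0.73 ± 0.19). Exo1 (0.47 ± 0.12) and Clspn (0.54 ± 0.14) were also higher in fetal liver Fr.A, each as log2 change ± SE.

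Of 19 other nucleotide enzymes, 7 (36.8%) were higher and 1 (5.26%) lower in fetal liver Fr.A, and 8 (42.1%) and 2 (10.5%) in Fr.B/C. Over the step 3 (15.8%) rose and 3 (15.8%) fell in bone marrow, and 3 (15.8%) rose and 2 (10.5%) fell in fetal liver. The shares over the step were near those of all genes. Dck, the deoxycytidine salvage kinase, rose in bone marrow (1.35 ± 0.15) and fetal liver (1.04 ± 0.15), and Samhd1, which breaks down deoxynucleotides, fell in both (-0.93 ± 0.10 and -0.64 ± 0.10). In Fr.B/C fetal liver was higher for Dtymk (1.02 ± 0.16), Cad (0.82 ± 0.14) and Ctps (0.64 ± 0.10), enzymes of pyrimidine nucleotide synthesis. Mitochondrial thymidine kinase Tk2 was lower in fetal liver in both fractions (-0.67 ± 0.13 and -0.64 ± 0.13).

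Of 30 measured regulators of the G1 to S transition outside the 44 genes, 13 (43.3%) rose and 2 (6.67%) fell over the bone marrow step. In fetal liver 10 (33.3%) rose and 1 (3.33%) fell. The transcription factors E2f2 (1.41 ± 0.16 and 1.46 ± 0.16) and E2f7 (1.18 ± 0.12 and 1.004 ± 0.12) rose in both tissues, as did the histone chaperone Asf1b (1.51 ± 0.13 and 1.05 ± 0.13). The CDK inhibitor gene Cdkn2c rose too (1.26 ± 0.14 and 1.85 ± 0.14), and so did Rb1, whose product restrains E2F (0.63 ± 0.08 and 0.77 ± 0.08). Between tissues 8 (26.7%) were higher and 4 (13.3%) lower in fetal liver Fr.A, and 8 (26.7%) and 5 (16.7%) in Fr.B/C. Cdkn1a, the gene of the p21 inhibitor, was the lowest (-2.11 ± 0.20 and -1.34 ± 0.20), and E2f5 was higher in both (0.83 ± 0.14 and 0.98 ± 0.14).

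Mitosis genes were counted in the same way. Of 23 measured, 20 (87.0%) were higher and none lower in fetal liver Fr.A, and 10 (43.5%) were higher and 1 (4.35%) lower in Fr.B/C. Over the step 19 (82.6%) rose and none fell in bone marrow, and 8 (34.8%) rose and 2 (8.70%) fell in fetal liver. Their mean log2 ratio per array was -0.91 to -0.70 in bone marrow Fr.A, -0.15 to -0.08 in bone marrow Fr.B/C, -0.10 to -0.04 in fetal liver Fr.A and 0.11 to 0.29 in fetal liver Fr.B/C. Ube2c, which targets cyclins for destruction, was 1.34 ± 0.11 higher in fetal liver Fr.A and rose by 1.11 ± 0.11 in bone marrow. Tpx2, a spindle assembly factor, was higher by 1.18 ± 0.09 in Fr.A, and the mitotic kinase gene Plk1 by 0.90 ± 0.11 in Fr.B/C. Of the interactions 6 (26.1%) were lower in fetal liver, among them Cenpe (-0.95 ± 0.27) and Mki67 (-0.79 ± 0.14). That held for 2 (4.55%) of the 44 replication genes and 3.03% of all genes. The median change was 0.72 for mitosis genes and 0.21 for replication genes in fetal liver against bone marrow Fr.A, and 0.63 and 0.24 over the bone marrow step. The difference between the lists was not tested.

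**Figure D4:**
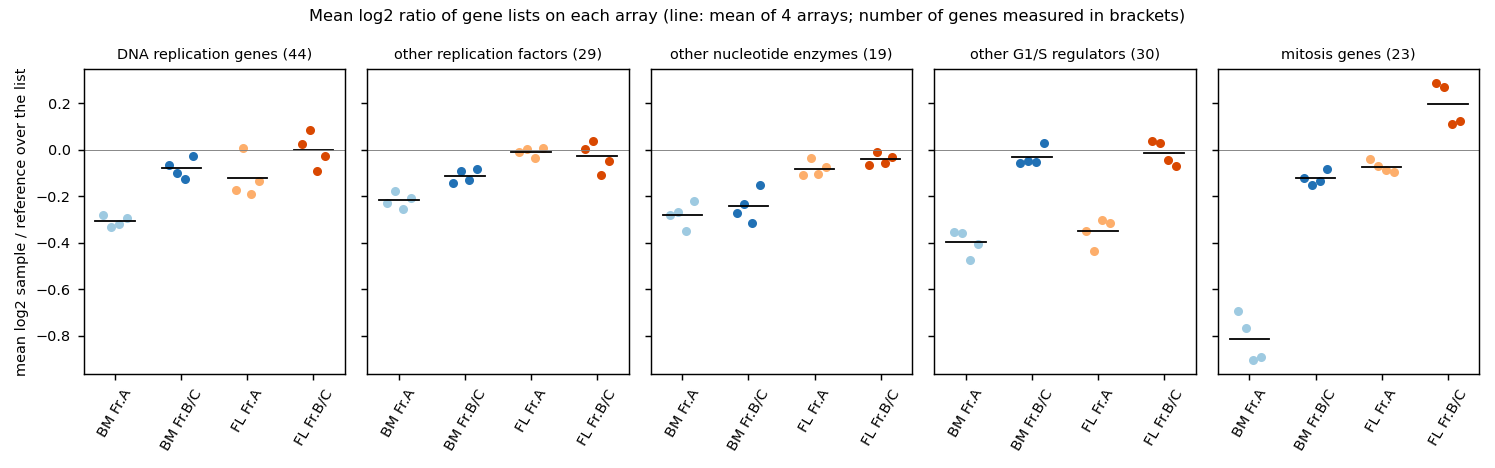
Mean log2 ratio of sample over reference on each array for the 44 replication genes and 4 lists of related genes, with a line at the mean of 4 arrays. The bone marrow Fr.A arrays lie lowest in the replication panel (-0.33 to -0.28) and furthest from the rest in the mitosis panel (-0.91 to -0.70).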

How the data were processed

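Two-colour Agilent arrays carried 100 ng of amplified sample RNA against a common reference. The deposited scanner intensities are mean spot and median local background signals, which Feature Extraction 8.5.1.1 wrote per the file headers. Its processed intensities and their log10 ratio of red over green were background-subtracted and dye-normalized per the file headers. The authors' deposited table holds log2 ratios whose scale and direction were matched to the scanner values (r = 0.930 to 0.951, array medians -0.00726 to 0.0201). How the table was centred stays unknown, and limma is named in the submitters' processing notes.

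Intensities were corrected here with normexp (offset 50) and loess within arrays in limma 3.58.1 (R 4.3.3), with sample in Cy5 on arrays 1 and 3 and in Cy3 on arrays 2 and 4. Control spots and outlier flags were left out. Of 41174 probes, 27521 were kept that were well above background on at least 3 arrays of a group and usable on at least 12 arrays. The brightest probe stood for a gene. limma with 4 groups and a dye term (11 residual degrees of freedom) gave moderated tests for 21764 genes, with Benjamini-Hochberg adjustment over all of them and a threshold of 0.05. The fit was run on simulated data whose arrays were independent, so that run cannot show how p-values behave if arrays of a set share a sort.

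The 44 genes and all lists were chosen with earlier results of these data known. Values on every array are given for up to 2 genes per role with the smallest adjusted p, and for the 3 highest and 3 lowest called changes of each comparison. Values of Orc1, Orc6, Pold1, Pcna, Rfc4, Rrm1 and Dut were chosen after they were seen. Of other lists, genes with the smallest adjusted p are named, some with their value in a further comparison, chosen likewise. The labels give Fr.A and Fr.B/C of a tissue the same 4 replicate numbers, each sort giving both fractions. Same-numbered arrays of the fractions of a tissue correlated, after group and dye, at 0.42 to 0.52 in bone marrow and 0.25 to 0.38 in fetal liver. Same-numbered Fr.B/C arrays of different tissues, which share no sort, had 0.28 to 0.48, and Fr.A arrays -0.26 to 0.15. These correlations therefore cannot show that the number pairs the fractions, and the pairing rests on the labels. As a fixed block the number also joined arrays of both tissues, so between tissues it pairs no sorts. As a random block it was held within a tissue. Alternatives changed the background correction, normalization, filter, probe choice, dye term, blocks and arrays used; those that treat arrays 1 and 2, or 3 and 4, as a set were added after seeing the data. The p-values measure the spread between arrays of pooled sorts.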

Additional observations from a re-analysis of the deposited data

Results flagged for a closer look

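Over 108 groups of 4 arrays, made of 27 genes in 4 groups, 2 held an array far from its group, where chance gives about 1 in 20. Pole2 on fetal liver Fr.A array 2 had a log2 ratio of -0.228, below the other 3 arrays at 0.24 to 0.29. Tyms on bone marrow Fr.B/C array 4 had 0.7314, above the other 3. The step from Fr.A to Fr.B/C differed between tissues for Rfc3 (interaction -0.51 ± 0.14, adjusted p = 0.0333 in limma) and Tk1 (-0.62 ± 0.13, adjusted p = 0.0091), both lower in fetal liver, and neither passed with array sets averaged (adjusted p = 0.489 and 0.284).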

How the results depend on the processing

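No named call changed direction under the alternatives fitted, but the Cdc6 rise over the bone marrow step shrank to 0.03 (adjusted p = 0.798) with the mean over probes, one of its probes rising and the other falling. Counts are of the 44 genes passing in limma, given in the order Fr.A between tissues, Fr.B/C between tissues, the bone marrow step, the fetal liver step and the interaction, which were 15, 16, 20, 11 and 2 as reported. In that fit 29.6%, 28.7%, 32.3%, 22.8% and 7.5% of all genes passed. The shares of all genes under the alternatives, here and above, are not given. From the counts given here alone, a changed count therefore cannot be told apart from a changed share over all genes. Median centring gave 1, 5, 6, 4 and 0 (4 at an unadjusted p under 0.05), and array sets averaged gave 4, 3, 6, 2 and 0 (2 unadjusted). Averaged sets with a set term gave 7, 8, 12, 5 and 0 (5 unadjusted), and the set as a random block gave 5, 6, 11, 4 and 0 (4 unadjusted). The sample in Cy5 alone gave 4, 3, 5, 2 and 0 (3 unadjusted), and in Cy3 alone 3, 1, 3, 0 (8 unadjusted) and 0 (1 unadjusted). Arrays 3 and 4 alone gave 23, 25, 24 and 13 in all but the bone marrow step, and arrays 1 and 2 alone gave 1 interaction. Processed scanner signals gave 10 in Fr.B/C and 0 interactions (5 unadjusted). The authors' table gave 7 for the fetal liver step and 1 interaction. Scaling between arrays and leaving out the dye term gave 1 interaction each. Scan session as a fixed block gave 18 for the fetal liver step and 4 interactions. The replicate block as a fixed term gave 20, 18, 23, 15 and 4, and as a random term 15, 15, 26, 18 and 5. It ended the calls of Lig1 (bone marrow step, fixed) and Rfc4 (both tissue comparisons, random), and no other named call. Leaving out each array in turn gave 11 to 17, 10 to 16, 14 to 22, 8 to 12 and 1 to 3, with 10 in Fr.B/C without bone marrow Fr.B/C array 2 and 3 interactions without fetal liver Fr.A array 2. The causes were not tested. With 4 arrays a group, small changes cannot be resolved. All 44 probes were well above background in the sample channel on every array, and whether signal level affected their ratios was not tested.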
